A study of Caenorhabditis elegans with 2 samples.

Results

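The X chromosome held 213 of the 1189 peaks in the reproducible set of FKH-4 binding sites in Caenorhabditis elegans L1 larvae, and the other 976 lay on the 5 autosomes. Members were taken by position alone, as every peak of that set on X, so no measured value chose them beyond the authors' own reproducibility step. FKH-4 binding was mapped by ChIP-seq (chromatin immunoprecipitation followed by sequencing) in 2 biological replicates of 1 group. The worms were hermaphrodite L1 larvae of strain OP100, genotype unc-119(tm4063) III; wgIs100, starved after bleaching and collected 6 h after synchronisation. The transgene wgIs100 expresses FKH-4 with a GFP and FLAG tag at its C terminus, and an antibody against GFP precipitated the sonicated chromatin. Both replicates carry the transgene and the unc-119 background, whole larvae were used, and no untagged or second-stage sample was analysed here, so each comparison is between chromosomes within the same 2 libraries. The sources used here do not state read depth, and the intervals printed with shares are exact Clopper-Pearson 95% intervals that cover counting error only.

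FKH-4 belongs to the forkhead family, whose members bind DNA through a winged-helix domain, commonly at sites related to TGTTTAC. The X chromosome of C. elegans differs from the autosomes in gene content, with fewer germline genes and operons and longer intergenic stretches. In hermaphrodites it is covered by the dosage compensation complex, a condensin-containing assembly that lowers transcription from both X chromosomes, so that XX animals match X0 males. That complex loads at recruitment sites that hold copies of the MEX motif, a GC-rich element whose core is GCGCAGGG, and then spreads along the chromosome.

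Several of the strongest FKH-4 peaks on X lay on copies of 1 word of 12 bases, ATCGCGCAGGGA, which contains that core. A search of all 12-base words within 100 bp of the summits (the position of highest signal in a peak) returned it as the word, on either strand, whose share of X windows exceeded that of autosomal windows most, tied with a version shifted by 1 base. It was present at 8 X peaks and at 0 autosomal peaks. The word was chosen on these peaks, so its counts are a description and carry no test. The stretches of 52 bases around the best copy at each of the 11 X peaks with at most 1 mismatch to it, read from the ce11 assembly on the strand of the copy and named by the gene with the nearest start, are shown in order of signal with the copy in capitals.
F22H10.2, X:16682151-16682202, minus strand: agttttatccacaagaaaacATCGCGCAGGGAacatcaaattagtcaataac
W02H3.3, X:11094104-11094155, minus strand: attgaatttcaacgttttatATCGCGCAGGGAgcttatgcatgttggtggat
nspc-17, X:14525879-14525930, minus strand: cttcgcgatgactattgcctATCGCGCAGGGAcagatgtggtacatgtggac
F20B6.9, X:4209245-4209296, minus strand: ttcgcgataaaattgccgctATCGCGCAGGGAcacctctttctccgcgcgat
xol-1, X:8036412-8036463, plus strand: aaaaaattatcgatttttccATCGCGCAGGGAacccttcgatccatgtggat
cest-16, X:6296553-6296604, plus strand: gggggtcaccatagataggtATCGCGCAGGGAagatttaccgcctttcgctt
F55G7.5, X:11937436-11937487, minus strand: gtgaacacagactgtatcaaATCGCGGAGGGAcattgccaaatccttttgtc
Y41G9A.17, X:2997102-2997153, minus strand: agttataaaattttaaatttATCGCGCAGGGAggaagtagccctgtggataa
gtr-1, X:806651-806702, plus strand: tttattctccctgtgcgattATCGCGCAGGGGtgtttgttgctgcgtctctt
col-185, X:13514535-13514586, plus strand: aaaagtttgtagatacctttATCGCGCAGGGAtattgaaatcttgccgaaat
fbxb-58, X:1627083-1627134, plus strand: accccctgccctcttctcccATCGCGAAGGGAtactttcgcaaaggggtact

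The gene names beside these stretches give the nearest annotated start and do not show that a peak acts on that gene. Genes known only by a sequence name, such as F22H10.2, fell outside the naming rule and were chosen after their values were seen. The middle of the best copy lay 1 bp from the summit at nspc-17, 3 bp at F20B6.9 and at gtr-1, 4 bp at cest-16 and 79 bp at F55G7.5, the farthest. At 7 of the 11 peaks, 2 or more copies with up to 2 mismatches stood within 100 bp of the summit.

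The strongest X peak, at X:16682043-16682239, had a pooled signal of 336 and stood 20th in the whole list. The signal is the authors' own height value of a peak, as deposited, on a scale that the sources used here do not define. That peak had a signal of 191 in replicate 1, rank 3 of its list, and of 148 in replicate 2, rank 52, and its summit lay 2610 bp downstream of the start of F22H10.2 in intergenic sequence. At W02H3.3 (X:11094171) the pooled signal was 259, with 135 in replicate 1 and 132 in replicate 2. Next to nspc-17, a gene of a nematode-specific peptide family, it was 242, with 149 in replicate 1 and 93.3 in replicate 2. This was the single promoter peak among the 11, with its summit 723 bp upstream of the nspc-17 start. The peak at F20B6.9 had a pooled signal of 232, with 115.98 in replicate 1 and 121 in replicate 2.

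The peak at X:8036445 lay 4868 bp upstream of xol-1, the X-linked switch gene that directs male development and is repressed in hermaphrodites. Its pooled signal was 216, with 137 in replicate 1 and 76.8 in replicate 2. The peak nearest to the start of cest-16, a carboxylesterase gene, lay inside mom-1, which acts in Wnt secretion, and had a pooled signal of 211, with 92.8 in replicate 1 and 120 in replicate 2. Weaker peaks of the 11 stood near gtr-1, which encodes a receptor-like membrane protein (172), near the collagen gene col-185 (112) and near the F-box gene fbxb-58 (104.8), all in pooled signal.

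The 11 peaks ranged from 104.8 to 336 in pooled signal with a median of 211, against a median of 71.9 for the 195 X peaks with no copy at up to 2 mismatches and 82.7 for the 7 whose best copy had 2 mismatches. They made up 9 of the 25 strongest X peaks. By position, 8 were intergenic, 2 lay in gene bodies outside exons and 1 in a promoter, and the median distance to the nearest coding start was 2683 bp. All 11 ranked higher in replicate 1 than in replicate 2, with a median rank of 53 against 159, while 117 of the 210 X peaks found in both lists (55.7%) did so. Of the 20 strongest peaks of replicate 1, 6 lay on X and 4 of these held the word with at most 1 mismatch. Among the 20 strongest peaks of replicate 2, 0 lay on X, and X held 9 of the 50 strongest in replicate 1 and 0 of 50 in replicate 2. The 2 libraries thus placed these sites at different heights, and no further replicate was analysed here to say which order is typical.

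**Figure D1:**
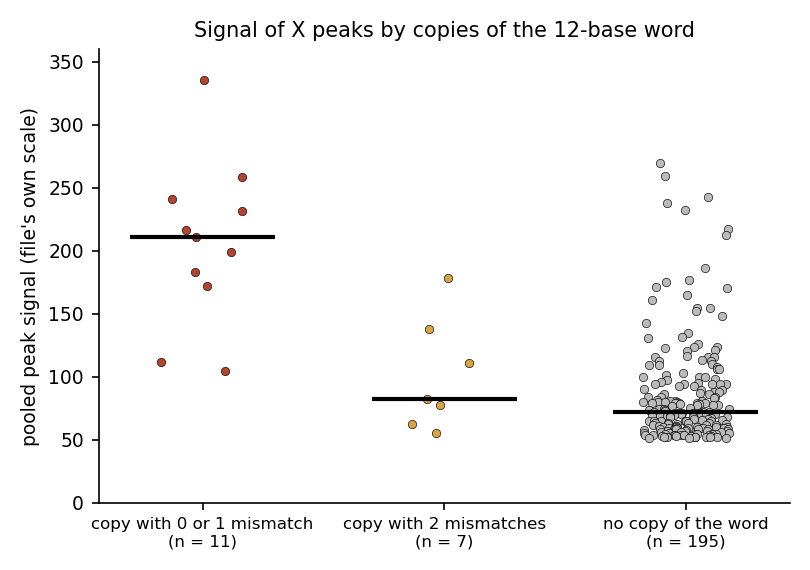
Pooled peak signal, on the deposited scale, of the 213 X peaks, grouped by the best copy of the 12-base word within 100 bp of the summit (points are peaks, lines are medians). Peaks with 0 or 1 mismatch sat between 104.8 and 336 with a median of 211, while the 195 peaks without a copy had a median of 71.9 and reached 270.

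**Figure D2:**
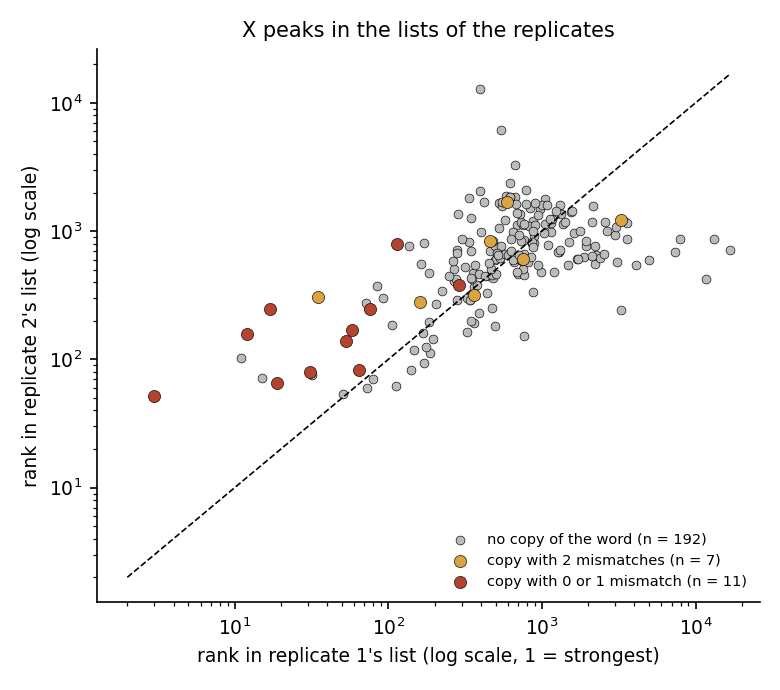
Rank of each X peak in the lists of replicate 1 and replicate 2, both on log axes with 1 as the strongest, for the 210 X peaks found in both lists within 200 bp (the dashed line marks equal ranks). The 11 peaks with the word at 0 or 1 mismatch all lie above the line, that is, they ranked higher in replicate 1.

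Copies of the word away from peaks were counted over the whole sequence of each chromosome. X held 10 exact copies, of which 9 had a reproducible summit within 100 bp, and the autosomes held 1, which had none. With at most 1 mismatch, 18 of 38 X copies (47.4%) and 1 of 46 autosomal copies (2.17%) had such a summit. With up to 2 mismatches the counts were 28 of 348 (8.05%) on X and 14 of 1472 (0.951%) on the autosomes. Several copies can share a peak: the X copies with a summit stood at 8, 11 and 18 X peaks in turn. Copies are therefore not separate sites, and the word itself was picked at these summits. The 8-base core GCGCAGGG alone occurred 81 times on X and 233 times on the autosomes, which is 4.57 and 2.82 copies per Mb, and 16 of the X copies (19.8%) against 1 of the autosomal copies (0.429%) had a reproducible summit within 100 bp. In the relaxed pooled list of 30000 peaks, 24 of the 81 X copies (29.6%) and 14 of the 233 autosomal copies (6.01%) had a summit at that distance. Copies of the core were likewise counted singly and not by peak.

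The core was 1 of 18 motifs compared between X and autosomal summits in windows reaching 50 bp to each side of the summits, on both strands. It stood in 10 of 213 X windows (4.69%) and 1 of 976 autosomal windows (0.102%), and the two-sided Fisher's exact test gave p = 4.76e-06 after Benjamini-Hochberg adjustment over the 18 motifs. Of all consecutive stretches of X of that length, 0.0388% held it. It was found mostly at strong peaks: among the 100 strongest peaks of the list, 6 of 15 X peaks (40%) and 0 of 85 autosomal peaks held the core, and in the rest of the list 4 of 198 (2.02%) and 1 of 891 (0.112%). The motifs were chosen with earlier results of these data known. The p-value for the core is therefore not independent of these peaks or of the 12-base word that contains it. The forkhead site TGTTTAC stood in 0.939% of X windows and 1.02% of autosomal windows (Fisher's exact test, adjusted p = 1), against 1.55% of all X stretches of the same length. Its shorter core TAAACA was in 5.16% of X and 6.25% of autosomal windows (exact test, adjusted p = 0.673), against 9.16% of X stretches. The repeat GAGAGAGA was in 0.939% of X and 3.89% of autosomal windows and did not pass the adjustment (p = 0.2997, Fisher's exact test). The other 14 motifs had adjusted p-values from 0.631 to 0.673 in the same exact tests. With 100 bp on either side, GAANNTTC, the inverted pair of units in heat shock elements, was less frequent at X summits (4.23% against 12.5%, exact test, adjusted p = 0.00219). It did not pass with 50 bp (2.82% against 5.02%, exact test, adjusted p = 0.631) or with 25 bp (1.88% against 1.95%). Away from summits it was also rarer on X, in 5.64% of X and 7.96% of autosomal stretches as long as the 50 bp windows. Whether the difference at summits exceeds that background was not tested.

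Short words other than the 12-base word also recurred at the strong X peaks. CGAAGGGA, which differs from the end of the word in 1 base, stood within 100 bp of 11 X summits (5.16%) and 2 autosomal summits (0.205%), and 6 of the 11 were also peaks with the word. TATCCACA stood at 9 X summits (4.23%) and 1 autosomal summit (0.102%), 3 of them at peaks with the word. At least 1 of the 3 was found at 21 X peaks, 13 of them among the 25 strongest. ACATCTG, present at 32 X summits (15.02%) and 89 autosomal summits (9.12%), was shared with the word at 1 peak. GAAACAGA, present at 18 X summits (8.45%) and 40 autosomal summits (4.10%), was shared with the word at 0 peaks. These words too were picked from the same windows and carry no test.

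The 7 strongest X peaks without the 12-base word, all among the 12 strongest X peaks, are shown with 50 bases to each side of the summit. The stretches are on the plus strand of ce11, with copies of TATCCACA, CGAAGGGA, ACATCTG and GAAACAGA on either strand in capitals. At B0563.10, C01C4.3 and unc-9 the stretch held none of the 4 words.
K02D3.1, X:13700793-13700893: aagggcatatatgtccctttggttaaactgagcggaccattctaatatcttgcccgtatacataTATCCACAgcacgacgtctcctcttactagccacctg
ZK899.6, X:9465820-9465920: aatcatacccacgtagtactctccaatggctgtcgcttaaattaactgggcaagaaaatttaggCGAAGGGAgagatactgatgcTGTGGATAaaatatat
B0563.10, X:9167083-9167183: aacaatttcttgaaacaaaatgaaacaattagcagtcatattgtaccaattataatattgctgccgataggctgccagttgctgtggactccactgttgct
C01C4.3, X:3711841-3711941: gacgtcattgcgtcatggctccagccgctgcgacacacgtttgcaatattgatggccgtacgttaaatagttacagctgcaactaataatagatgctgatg
ncs-3, X:1053107-1053207: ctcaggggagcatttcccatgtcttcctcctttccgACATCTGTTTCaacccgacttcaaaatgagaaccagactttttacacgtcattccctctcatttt
rei-2, X:1086551-1086651: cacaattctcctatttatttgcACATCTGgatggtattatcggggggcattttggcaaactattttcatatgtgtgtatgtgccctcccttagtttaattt
unc-9, X:13212684-13212784: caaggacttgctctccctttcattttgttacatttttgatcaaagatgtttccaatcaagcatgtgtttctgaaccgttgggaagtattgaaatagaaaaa

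The peak at K02D3.1 was the second strongest on X, with a pooled signal of 270, 140 in replicate 1 and 130 in replicate 2, and lay 6064 bp upstream of the nearest coding start. The peak at ZK899.6 had a pooled signal of 259, with 149 in replicate 1 and 114 in replicate 2. At B0563.10 it was 243, with 100.1 in replicate 1 and 144 in replicate 2, and the summit lay 112 bp downstream of the start. In the body of C01C4.3 it was 238, with 115.6 in replicate 1 and 124 in replicate 2. At ncs-3, which encodes a neuronal calcium sensor protein, the signal was 232 pooled, 89.5 in replicate 1 and 140 in replicate 2, and the summit lay 924 bp upstream of the start. At unc-9, which encodes a gap junction innexin of neurons and muscle, it was 218 pooled, 87.6 in replicate 1 and 130 in replicate 2. At rei-2, a gene for a protein that interacts with the RAB-11 GTPase, it was 213 pooled, 72.7 in replicate 1 and 138 in replicate 2. Signals of the 2 replicates are on each list's own scale, so the order is given by rank. The peaks at K02D3.1, ZK899.6, B0563.10 (ranks 51 and 54) and C01C4.3 (32 and 76) ranked higher in replicate 1. Those at ncs-3, unc-9 and rei-2 ranked higher in replicate 2.

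X peaks lay in promoters less often than autosomal peaks. A promoter is here the stretch that runs 1000 bp upstream and 200 bp downstream of a coding transcript's start, and 72 of 213 X summits (33.8%, interval 27.5 to 40.6) were in one, against 625 of 976 autosomal summits (64.04%). The odds ratio was 0.287, with p = 4.27e-15 by Fisher's exact test (two-sided, adjusted over 5 classes by Benjamini-Hochberg). Promoters make up 21.8% of X and 27.1% of autosomal sequence, so that X summits fell there 1.55 times and autosomal summits 2.36 times as often as the sequence share. Intergenic sequence held 83 X summits (38.97%) and 199 autosomal summits (20.4%, exact test, adjusted p = 9.78e-08), where it makes up 32.3% of X and 23.5% of the autosomes. Other parts of coding gene bodies held 19.7% of X summits and 12.7% of autosomal summits (exact test, adjusted p = 0.0146). Such parts exclude promoters, coding exons and UTRs, and noncoding genes outside coding genes count as intergenic. Coding exons held 11 X summits (5.16%) and 16 autosomal summits (1.64%, exact test, adjusted p = 0.00703), a difference whose exact-test adjusted p was 0.0858 in the strongest peaks of replicate 2 alone and 0.106 in those of replicate 1 alone. UTRs held 5 X summits (2.35%) and 12 autosomal summits (1.23%, exact test, adjusted p = 0.208).

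**Figure D3:**
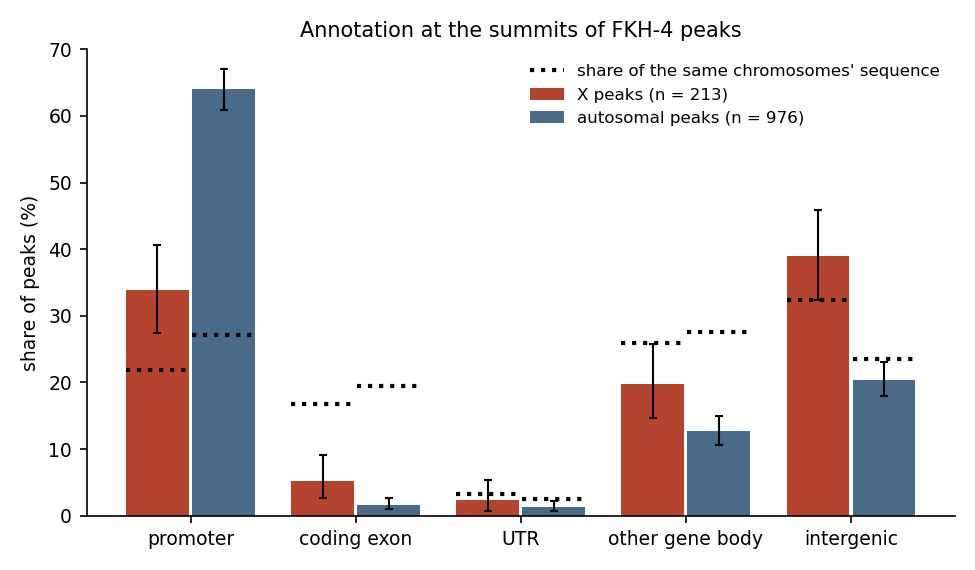
Share of summits in each annotation class for X peaks (n = 213) and autosomal peaks (n = 976), with exact 95% intervals, and dotted lines for the share of the same chromosomes' sequence in that class. X peaks reached 33.8% in promoters and 38.97% in intergenic sequence, autosomal peaks 64.04% and 20.4%.

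The promoter share of the autosomes taken singly ran from 60.8% to 65.9%, so that X was the lowest of the 6 chromosomes. The gap was present at every level of signal. Among ranks 1 to 297, 9 of 42 X peaks (21.4%) and 195 of 255 autosomal peaks (76.5%) were in promoters. At ranks 298 to 594 the shares were 39.1% and 63.7%, at ranks 595 to 892 they were 34.9% and 58.7%, and at ranks 893 to 1189 they were 37.1% and 56.2%. The autosomal share thus stood highest in the strongest peaks, while the X share was lowest there, with intervals of the 4 X shares that overlap. Over the 195 X and 963 autosomal peaks with no whole copy of the 12-base word at up to 2 mismatches within 100 bp, the X minus autosome difference in promoter share was -28.99 percentage points, an alternative chosen after the data were seen.

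**Figure D4:**
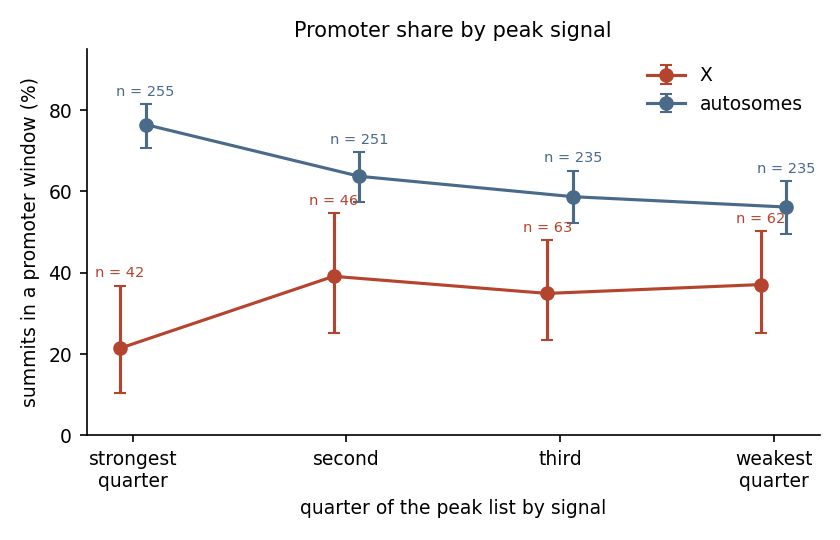
Share of summits in promoters, with exact 95% intervals, for X and autosomal peaks in 4 equal parts of the list ordered by signal, from ranks 1 to 297 on the left to ranks 893 to 1189 on the right. The autosomal share was 76.5% in the strongest peaks and 56.2% in the weakest, and the X share was 21.4% in the strongest peaks and between 34.9% and 39.1% in the others.

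X summits were also farther from gene starts. The median distance to the nearest coding start was 1485 bp on X and 370 bp on the autosomes, and 37.1% against 18.03% were more than 2000 bp away. Within promoters the medians were 308 bp and 194 bp. Most promoter summits lay upstream of the start on both, 65 of 72 on X (90.3%) and 91.2% on the autosomes. The GC content of the same windows around the summit had a median of 41.6% on X and 44.6% on the autosomes, where whole-chromosome values are 35.2% and 35.5%. Between promoter windows the medians were 46.5% on X and 45.5% on the autosomes.

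Fewer X genes had a peak at their start. Of 2731 coding genes on X, 78 (2.86%) had a summit in the promoter window, against 875 of 17242 autosomal genes (5.07%), an odds ratio of 0.550 with p = 9.53e-08 (two-sided Fisher's exact test). The share over all 19973 coding genes was 4.77%. X promoter peaks seldom belonged to more than 1 gene: 6 of 72 (8.33%) stood in windows shared by several genes, against 268 of 625 on the autosomes (42.9%, odds ratio 0.121, p = 1.11e-09, two-sided Fisher's exact test). How much promoter sequence of X and of the autosomes is shared by several genes, bound or not, was not counted. The difference is therefore not set against gene layout. The tests count each peak and gene as independent, which neighbours are not, and speak for these 2 libraries alone.

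By number, X was neither rich nor poor in peaks for its length. Its 17.9% of all peaks (interval 15.8 to 20.2) compared with 17.7% of nuclear sequence (two-sided exact binomial p = 0.820) and with 13.7% of coding genes (p = 4.09e-05). X held 12.02 peaks per Mb, between 9.51 on chromosome V and 16.6 on chromosome III. Among the 594 strongest peaks the X share was 14.8%, and it no longer exceeded the share of coding genes in the exact test (p = 0.404).

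The pooled signal of X peaks ranged from 51.7 to 336 with a median of 74.3, and that of autosomal peaks reached 645 with a median of 82.5. The median of the whole list, 80.4, was exceeded by 88 X peaks (41.3%) and 506 autosomal peaks (51.8%, p = 0.00639, two-sided Fisher's exact test). Measured in replicate 1 alone at the same peaks, the shares above the median were 48.6% and 50.3%, an X minus autosome difference of -1.69 percentage points. In replicate 2 alone they were 40.4% and 52.1%, a difference of -11.7 percentage points. The lower signal of X peaks was thus seen mainly in replicate 2. The class medians show where X was lower: 71.5 against 87.9 in promoters, but 77.3 against 73.5 in intergenic sequence, and 79.1 on both in other parts of coding gene bodies.

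The replicates were compared by how often X and autosomal peaks of one recurred in the other. Of the 219 X peaks among the 1189 strongest of replicate 1, 133 (60.7%) were matched within 200 bp by the equally long list of replicate 2, against 66.3% on the autosomes (p = 0.135, two-sided Fisher's exact test). From replicate 2 to replicate 1 the shares were 66.5% of 200 X peaks and 64.6% (exact test, p = 0.627). Among the 594 strongest peaks of each replicate, 64.4% of X peaks and 75.5% of autosomal peaks of replicate 1 were matched in replicate 2 (exact test, p = 0.0270), and in the other direction 77.3% and 72.1% (exact test, p = 0.364). Of the 213 X peaks, 210 had a match anywhere in the relaxed list of replicate 1 and 213 in that of replicate 2. In replicate 2, 80.3% of X peaks and 87.7% of autosomal peaks of the reproducible set were matched by its 1189 strongest, and in replicate 1 the shares were 77.0% and 75.8%, with no test. Across the 210 found in both, the signals of the replicates had a Spearman rho of 0.559, and across 960 autosomal peaks 0.611, as a description over peaks of the same 2 libraries.

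Along X the peaks were spread from X:410229 to X:17545696. With X cut into 3 segments of equal length, the left held 71 peaks, the middle 65 and the right 77, and in 2-sided exact binomial tests against the coding genes there the adjusted p-values were 0.659, 0.348 and 0.362. The middle segment held 30.5% of X peaks against 35.8% of X coding genes. On the autosomes the middle segment held from 32.9% of peaks on chromosome II to 49.2% on chromosome V, with no test of the difference. The median gap between neighbouring summits on X was 61426 bp, and the longest was 491914 bp, from X:8232164 to X:8724078. Full megabases of X held 4 to 17 peaks, with a variance to mean ratio of 1.10. On the autosomes the ratio was 0.954 on chromosome I, 1.21 on IV, 1.37 on II, 2.56 on III and 3.24 on V.

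**Figure D5:**
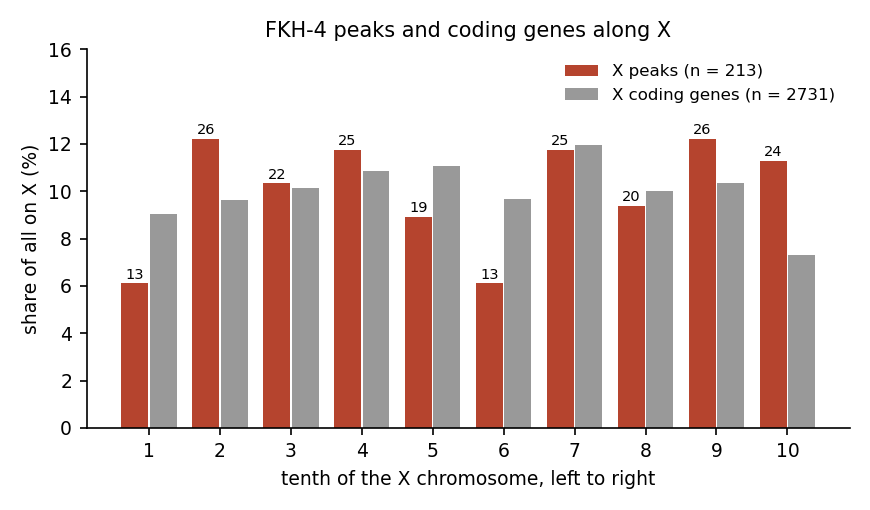
Share of X peaks (n = 213, counts above the bars) and of X coding genes (n = 2731) in 10 segments of X of equal length, from left to right. Segments held 13 to 26 peaks each, and the rightmost held 11.3% of peaks and 7.29% of coding genes.

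The 213 summits were nearest to the starts of 191 coding genes, of which 174 were nearest to 1 summit, 12 to 2 and 5 to 3. The 5 were C18B12.4, ZK1073.1, cab-1, dsc-1 and ftt-2. At ZK1073.1, the summits at X:16122842 and X:16123041 belong to overlapping peaks that matched the same peak in each replicate's list, so they may count 1 site 2 times. dsc-1 encodes a homeodomain protein of the defecation motor programme, and its 3 summits, from X:15032963 to X:15034965, had signals of 66.9 to 94.5. ftt-2, a 14-3-3 protein gene, had 3 summits from X:11600985 to X:11607474 with signals of 51.7 to 108. cab-1 encodes a neuronal protein that binds AEX-3, and the summits nearest to it had signals of 65.1 to 81.0. They lay 4968, 7079 and 16726 bp downstream of its start, those at 7079 and 16726 bp in intergenic sequence. Other strong X peaks with named nearest genes were at acl-1, an acyltransferase gene (promoter, 177), epn-1, which encodes the endocytic adaptor epsin (promoter, 171), pat-9, a zinc finger gene needed in body wall muscle (6228 bp upstream, 187), and nspg-12 (155).

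Gene groups were read for their X members, as counts of genes with a promoter summit or nearest to a summit. Beside them stand the 2.86% of X genes with a promoter summit and, for nearest genes, 191 of the 2731 X coding genes. None of the groups was tested. In the group of body wall muscle genes, 3 of 8 X members had a promoter summit: mup-2 (troponin T, summit signal 56.4), unc-27 (troponin I, 70.5) and unc-98 (an M-line zinc finger protein, 64.6). tni-1, another troponin I gene, and unc-97, the LIM protein PINCH of muscle attachments, were nearest to summits outside the window, at 84.2 and 54.3. Of 18 X members of the synapse and gap junction group, 3 had a promoter summit: unc-2, the presynaptic calcium channel (63.0), syd-2, the active zone protein liprin-alpha (54.4), and unc-9 (218). mec-2, a stomatin-like protein of touch neurons, had a summit of 152 within the gene, and unc-1, also stomatin-like, was nearest to one of 58.3.

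Of 6 heterochronic genes on X, which time larval fates, puf-9, a Pumilio family RNA-binding protein gene, had a promoter summit (135), and lin-14, a regulator of early larval fates, and daf-12, a nuclear receptor gene, had summits inside the gene (73.9 and 64.6). Of 28 X-linked transcription factor genes in the group, fkh-9 had a promoter summit, and hlh-8, the Twist homologue (94.7), and the nuclear receptor gene nhr-1 (70.7, 8220 bp upstream) were nearest to a summit, besides lin-14 and daf-12. sma-9, a Schnurri homologue in TGF-beta signalling (61.1), was the single member with a promoter summit among 7 X genes of the insulin and L1 arrest group. Of 12 axon guidance and matrix genes this was let-2, a type IV collagen gene (52.2). The splicing regulator sup-12 had a promoter summit (66.4), and mbl-1, the muscleblind homologue, a summit inside the gene (115.8), among 3 X genes of splicing and RNA binding. hsp-3, an ER chaperone of the HSP70 family, had a promoter summit of 55.5 and was the single X member of its group.

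In the group of X-signal and sex determination genes, 0 of 6 X members had a promoter summit, and xol-1 alone was nearest to a summit. For the dosage compensation complex, both X-linked members, sdc-1 and sdc-2, had no summit near them, at 65846 bp and 14161 bp from the closest. The 5 X genes of vulval signalling and synMuv B also had none.

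The fkh-4 gene itself lies on X, at X:13427114-13428855 on the minus strand, and had no reproducible summit within 20000 bp. The closest was 30348 bp away with a signal of 52.5, rank 1153. In the relaxed lists, the closest peak to the gene in replicate 1 was 11438 bp away at rank 28629, and in replicate 2 it was 19999 bp away. At fkh-9, another forkhead gene on X, a summit with a signal of 72.2 lay inside the gene at X:3819071, with 20.5 in replicate 1 and 45.8 in replicate 2.

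X peaks lay at the starts of tRNA genes more often than autosomal peaks, and at snoRNA genes less often, but neither difference passed the test in the 594 strongest peaks alone. Summits within 200 bp of a tRNA gene start numbered 8 on X (3.76%) and 6 on the autosomes (0.615%, odds ratio 6.31, p = 0.00420 after adjustment over 4 classes, Fisher's exact test, two-sided). X carries 276 of the tRNA genes and the autosomes 336, and 11 (3.99%) and 7 (2.08%) of them had a summit. These shares per gene were not tested, and the test above does not allow for the number of tRNA genes on X. Among the 594 strongest peaks, 2 of 88 X peaks and 2 of 506 autosomal peaks lay at tRNA starts (exact test, adjusted p = 0.426), and for snoRNA starts the adjusted p was 0.816. At 3 of the 8 X peaks the summit stood between a pair of divergent tRNA genes, at X:13046480, X:5801349 and X:3036098, with pooled signals of 63.5, 64.8 and 101.4. The peak at X:3036098 had a signal of 42.5 in replicate 1 and of 61.8 in replicate 2, and was the strongest of the 8. snoRNA gene starts had 0 X summits, with an exact interval that reaches 1.72%, and 22 autosomal summits (2.25%, exact test, adjusted p = 0.0435). X carries 33 of the snoRNA genes and the autosomes 313, and 0 and 22 (7.03%) of them had a summit, with no test per gene. By the exact test, the snoRNA difference had an adjusted p of 0.0754 in the strongest peaks of replicate 2 alone and 0.0679 in those of replicate 1 alone. snRNA and miRNA starts had 0 X summits and 11 and 2 autosomal ones (exact test, adjusted p = 0.307 and 1). X carries only 3 of the snRNA genes and the autosomes 126, and for miRNA genes the numbers are 74 and 187.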

How the data were processed

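The authors deposited peak lists for replicate 1, replicate 2, both pooled and a reproducible (IDR) set, on ce10 and ce11. Per the deposited sample listing, each list was made against a control, which is not analysed here. The sources used here do not name the caller, aligner, IDR threshold or read depth. The deposited signal values of peaks ranked peaks within each list, and the deposited −log10 q values (2.20 to 3.30 in the IDR set) entered no test. All 1189 IDR peaks were the 1189 strongest of the pooled list, so signal and reproducibility select together.

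Summits were placed on WBcel235 (ce11, Ensembl release 115 genes of 6 nuclear chromosomes) in the order promoter, coding exon, UTR, other gene body, intergenic. Motifs were searched on both strands within 50 bp of the summit. Fisher's exact tests (two-sided) compared X with autosomal peaks, and exact binomial tests compared shares (SciPy 1.17.1), with Benjamini-Hochberg adjustment within each family and a threshold of 0.05. The code was tested on simulated data. Replicate lists were matched within 200 bp. Alternatives changed the promoter window, peak set, replicate, distances and windows. The genes named are fkh-4 and fkh-9, symbol-bearing nearest genes of the 25 strongest X peaks, genes nearest to 3 or more X summits and X members of 11 gene lists. Members, lists and motifs were chosen with earlier results of these data known. ce10 lists gave counts only.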

Additional observations from a re-analysis of the deposited data

How the results depend on the processing

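Of 114 alternative values of the 19 main results, 94 kept direction and side of the threshold. A result not past the threshold counts as kept where it again was not. The number of motifs past the threshold was instead judged by a change of at most 1.5 times. The promoter, intergenic, bound-gene, shared-window and MEX core differences did so under every alternative run for them. Those alternatives draw on overlapping peaks of the same 2 libraries. The MEX core was chosen with earlier results of these data known, so its holding across them is no independent test. For the promoter share the X minus autosome difference ran from -39.5 to -18.02 percentage points, and for the intergenic share from 14.1 to 28.1. Removing peaks with the 12-base word was chosen after seeing the data, and these alternatives are among the 114. The cause of each change below was not tested.

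In the 594 strongest peaks, differences were 0.15 points for coding exons, -2.86 for the X share against length, 1.14 against coding genes, 1.88 for tRNA starts and -1.38 for snoRNA starts, and the coding exon, coding gene, tRNA and snoRNA calls were lost. In the 3000 strongest pooled peaks they were -0.21 for coding exons, 3.24 for other gene bodies, -0.14 for the X share against length, and -5.93 and 5.31 for the middle and right segments of X, both past the threshold there. With 1 replicate left out, ranges were 2.08 to 2.87 for coding exons, -0.85 to 0.75 for the X share against length, -0.39 to 2.11 for the left segment, -2.22 to -1.96 for snoRNA starts and -11.7 to -1.69 for signal above the median. The share among the strongest 297 peaks differed by -6.41 points, and matching the 594 strongest peaks of replicate 1 gave -11.1, past the threshold. With 100 bp around the summit 2 motifs passed, the heat shock unit at -8.27 being added. The forkhead site differed by 0.39 to 0.55 with 1 replicate left out and by 0.83 in 3000 peaks, and its core by -3.27 to 0.66 and 0.72 in 3000 peaks and 0.11 with 25 bp. miRNA starts within 500 bp differed by 0.060. No paired analysis was possible because there is 1 group. Unknown read depth limits what an absent peak can show.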
